A study of Drosophila melanogaster with 24 samples.

Results

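The F2-M25-G25 flies, the control group of the second generation, were compared with the F1-25 flies, the control group of the first, across the whole transcriptome. The comparison was made up of the 4 F2-M25-G25 and the 3 F1-25 libraries with values, chosen by their labels alone, and these were 7 of the 22 libraries with values, while the series listed 24 samples. The study asked whether a response to a low temperature can pass to the next generation through the germline or through the gut microbiome. Its F2 groups combined eggs of 1 F1 temperature with a microbiome (M) of the same or the other F1 temperature and are named after the F1 donors of each (M and G, for germline). Each library was made from total RNA of 20 whole males, collected within 16 h of eclosion and depleted of ribosomal RNA.

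The F2-M25-G25 flies grew at 25 °C from eggs of F1-25 parents, after the eggs had been washed in detergent and hypochlorite and placed in bottles that held faeces of F1-25 males. The F1-25 flies also grew at 25 °C, from eggs laid straight into fresh bottles. Both groups had a 12 h light and 12 h dark cycle, the same potato mash and yeast food and the same isogenic white stock with a y+ duplication on the Y chromosome. Neither group met the cold. Generation, egg collection on apple juice plates, egg wash, moving of the eggs and faecal transfer changed together between them. The effects of these cannot be told apart. The ages of the males within the collection window after eclosion are not given by library, and their part was not tested. As a pair with the same steps in libraries of other labels, F2-M18-G18 flies (4 libraries) were set against F1-18 flies (4 libraries). There the rearing temperature differed as well, at 25 °C in F2-M18-G18 and 18 °C in F1-18. In whole flies, fewer cells of a type and less RNA per cell cannot be told apart.

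A newly eclosed fly is still finishing its adult body. Its cuticle expands, tans and hardens under hormonal control, remnants of the larval fat body and its storage proteins are used up, the midgut begins to make digestive enzymes as feeding starts, and in males the accessory glands fill with seminal fluid proteins. Gut bacteria are taken up from the food and the egg surface and are known to affect digestion, growth and immunity of the fly.

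The deposited values are counts per gene that the authors scaled to a common library size, a normalised signal, and values below are on this scale unless a log2 scale is named. Genes were tested as log2(value + 2) with limma, keeping the 11314 genes (of 12024) that reached 10 in 3 libraries or more, and a gene was called below a Benjamini-Hochberg adjusted p of 0.05 over these genes. Log2 fold changes are F2-M25-G25 minus F1-25 on that scale, which understates the change of low genes, and are given with their standard error. In 7150 genes (63.2% of those tested) the F2-M25-G25 values of replicates C and D were each the average of A and B with a whole number added. These were treated as missing, so that such genes rest on 2 F2-M25-G25 values, while 4164 genes have 4.

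The labels of some libraries are in doubt. Read totals recovered from the steps between low values were 2947508, 5093949 and 6299857 for replicates B, C and D of F2-M25-G25, and 2150625, 4255387 and 6246847 for replicates A, B and D of F1-25, whereas replicate A of F2-M25-G25 gave steps too faint for a firm total. When set beside the library totals in the supplement, the total of F1-25 replicate A lay within 0.070% of the total listed under its own name. The total of F1-25 replicate B lay within 0.006% of one listed for an F1-18 library, and that of F1-25 replicate D within 0.048% of one listed for an F2-M25-G25 library. The faint estimate of F2-M25-G25 replicate A lay within 0.116% of an F2-M18-G18 total, and replicate B within 0.058% of another F2-M25-G25 total. In F2-M25-G25, the C and D totals also summed genes with calculated values, so they are not firm. They lay 0.68% (C) and 0.897% (D) from the nearest listed totals. Libraries of the other groups, which enter the estimate of the spread, also matched totals listed under other names. Whether the deposited labels or the listed names are wrong was not tested. Libraries are named here by their labels, and counts and medians without the doubted libraries follow. Among genes with 4 measured values, the scaled median absolute difference between F2-M25-G25 replicates was 0.432 on the log2 scale between A and B and 0.442 between C and D, but 0.506 to 0.602 across these pairs, against 0.426 to 0.483 between F1-25 replicates. The libraries held what male flies should, with high sperm, muscle and eye transcripts and at most 30.9 for any of the yolk protein genes Yp1, Yp2 and Yp3, which females use.

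Between the control generations 746 genes were called, 6.59% of those tested. Of these, 314 (2.78%) rose and 432 (3.82%) fell in F2-M25-G25, with median log2 fold changes of 0.67 and -0.92, and the median over all genes tested was -0.02. With equal library totals in place of the deposited scaling, 433 rose and 379 fell. The decreases were the larger: 195 genes fell by a log2 change of 1 or more and 75 by 2 or more, against 61 and 5 genes that rose as much. All measured F2-M25-G25 libraries lay above or all below the F1-25 libraries in 3278 genes (29.0%), 719 of them called. This share pools genes with 2 and with 4 F2-M25-G25 values, and 2 values lie apart more easily than 4. Of the called genes 627 rest on 2 F2-M25-G25 values and 119 on 4, and among these 119 genes 27 rose and 92 fell. The count was 14 without replicates B and D of F1-25, and 2 without these and replicate A of F2-M25-G25. It was 203 and 143 without replicate A or B of F2-M25-G25, and 407 and 341 without replicate B or D of F1-25. Of the 67 called genes among the 100 chosen by rule, all kept their direction in every alternative that could be run. That is no support, because 719 of the 746 called genes did not overlap and leaving out libraries cannot turn such a gene. Of the 67, 16 stayed past the threshold when each of the 7 libraries was left out in turn. However, 0 of the 67 stayed called by limma without replicates B and D of F1-25 (adjusted p 0.062 to 0.76) or without these and replicate A of F2-M25-G25 (0.23 to 0.82), where 1 F1-25 library is left and is assumed to vary like those of the other groups. In these fits 13 and 15 of the 67 log2 fold changes moved by over 1.5 times. Without replicates B and D of F1-25, the log2 fold change was -5.96 for Sgp, -5.16 for Jon25Bi, -2.98 for Est-6, -2.18 for apolpp, -3.79 for Acp65Aa, 1.58 for Cht5 and 0.72 for Rpn3, but only 1.17 for CG17298, 0.57 for Hr4 and 0.71 for rk.

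Genes for digestive proteases of the midgut had the lowest median log2 fold change of the lists. The Jonah proteases and the trypsins cut food proteins in the gut lumen. Of 25 tested, 16 fell and 0 rose, beside 3.82% of all genes that fell and 2.78% that rose. Of the 25, 24 had a log2 fold change below 0, and the median was -2.43. In 10 of the 25 every F2-M25-G25 library lay below every F1-25 library, beside the 29.0% of all genes without overlap in either direction. Their summed value was 1408 and 1665 in F2-M25-G25 replicates A and B, against 6769, 6846 and 14881 in replicates A, B and D of F1-25, so that the highest F1-25 library was replicate D. The group also had more members with 4 measured F2-M25-G25 values than most, 20 of 25, and 12 of these were called.

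Jon25Bi is a Jonah protease gene on chromosome arm 2L (4954279 to 4955144, minus strand, Release 6 as for all coordinates here). It had 0, 1.19, 142 and 0 in replicates A to D of F2-M25-G25, against 232, 123 and 724 in replicates A, B and D of F1-25. Replicate C of F2-M25-G25 was thus within the F1-25 range, while the other 3 libraries had almost none. It fell by 5.40 ± 1.10 on the log2 scale (limma, adjusted p = 0.0050), a fitted value that depends on the pseudocount because 2 libraries are at 0. Its neighbour Jon25Bii had 0, 0.838, 88.0 and 0, against 121, 75.9 and 304 in F1-25, and fell by 4.66 ± 1.01 (adjusted p = 0.0066). Jon99Fi had 0, 0.730, 59.0 and 8.48 in F2-M25-G25, against 155, 99.5 and 359 in F1-25, with no overlap, and fell by 4.54 ± 0.82 (adjusted p = 0.0024). In Jon65Ai the F2-M25-G25 values were 0, 1.80, 35.2 and 0, against 61.8, 67.6 and 165 in F1-25 (log2 fold change -4.21 ± 0.75, adjusted p = 0.0022). In each of these genes replicate C was the highest F2-M25-G25 library. Only uniquely aligned reads were counted, so that the split between near-identical neighbours such as Jon25Bi and Jon25Bii or Jon99Fi and Jon99Fii is uncertain.

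Among the trypsin genes, the abundant alphaTry had 619 and 667 in F2-M25-G25, against 1456, 1806 and 3215 in F1-25, and fell by 1.66 ± 0.30 (adjusted p = 0.0030). For betaTry, 28.2, 52.2, 1011 and 52.1 were measured in F2-M25-G25, against 1199, 1160 and 2269 in F1-25 (log2 fold change -3.92, adjusted p = 0.015). Replicate C again stood near the F1-25 libraries. Jon25Bi, Jon99Fi, Jon65Ai and alphaTry stayed called without any 1 library, whereas Jon25Bii was lost without F1-25 replicate D or F2-M25-G25 replicate B (adjusted p up to 0.052). For the group, the number that fell was 6 without F1-25 replicate D, 7 and 6 without replicate A or B of F2-M25-G25, and 14 to 21 without any other. It was 1, at a median of -2.32, without F1-25 replicates B and D, and 0, at -1.85, without F2-M25-G25 replicate A as well.

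**Figure D1:**
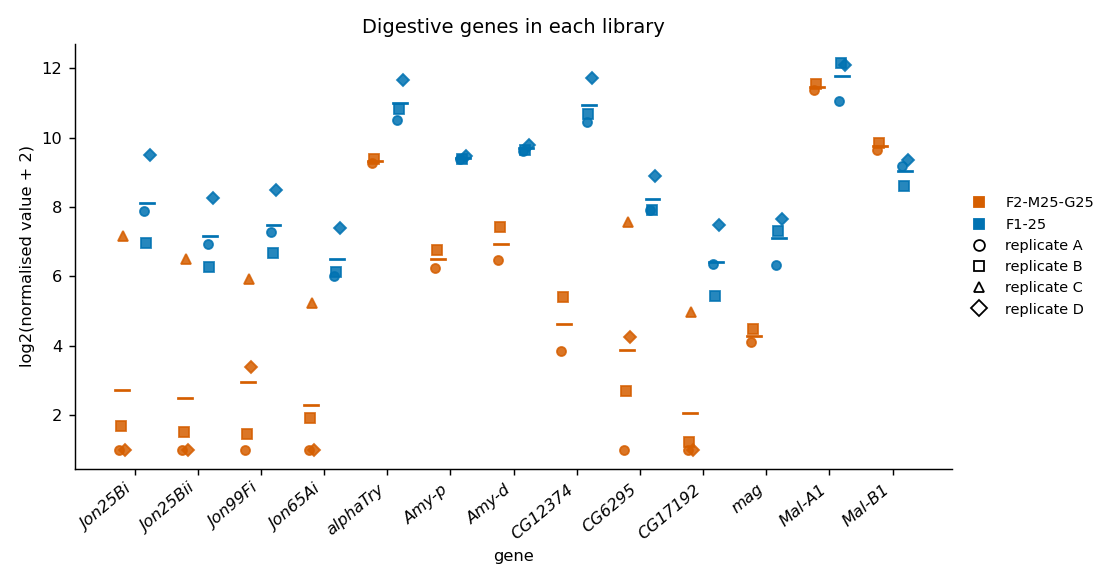
Log2(normalised value + 2) of 13 genes for digestive enzymes in each F2-M25-G25 library (orange) and F1-25 library (blue); symbols mark the replicate and short lines the group means. Replicate C of F2-M25-G25 lies well above the other F2-M25-G25 libraries in the Jonah proteases, CG6295 and CG17192, and genes with 2 orange points had calculated values in C and D.

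Other digestive enzymes were mixed. Of 14 maltase and amylase genes, which split sugars and starch, 3 fell and 1 rose, beside 3.82% and 2.78% of all genes. In 13 of the 14 the log2 fold change was below 0 (median -0.73). The amylase gene Amy-p had 73.6 and 107 in F2-M25-G25, against 663, 672 and 709 in F1-25, and fell by 2.91 ± 0.57 (adjusted p = 0.0042). Amy-d, a near-identical copy whose reads may be split from it with error, fell by 2.75 ± 0.50 (adjusted p = 0.0030). The maltase gene Mal-B1 went the other way, with 801 and 928 in F2-M25-G25 against 579, 390 and 654 in F1-25, and rose by 0.70 ± 0.21 (adjusted p = 0.044). The maltase gene with the highest value, Mal-A1, had 2676 and 3020, against 2113, 4532 and 4403, and the groups overlapped (log2 fold change -0.29 ± 0.24, adjusted p = 0.57). Both amylase genes were lost without F2-M25-G25 replicate A (adjusted p = 0.066), and Mal-B1 without that library, F2-M25-G25 replicate B or F1-25 replicate B. For the list, 0 fell without F2-M25-G25 replicate A, 7 without F1-25 replicate A and 6 without F2-M25-G25 replicate C, and without F1-25 replicates B and D 0 were called and the median was -0.08.

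Among the largest decreases of all genes were further enzymes of this kind. CG12374, a predicted carboxypeptidase, had 12.4 and 40.7 in F2-M25-G25, against 1408, 1632 and 3346 in F1-25, and fell by 6.32 ± 1.34 (adjusted p = 0.0066). The lipase-like genes CG17192 and CG6295 fell by 4.37 ± 0.87 (adjusted p = 0.0042) and 4.37 ± 1.21 (adjusted p = 0.031). Their F2-M25-G25 values were 0, 0.318, 29.6 and 0 for CG17192 and 0, 4.41, 187 and 17.0 for CG6295, against 41.0 to 177 and 238 to 477 in F1-25, so that replicate C was again the highest. The digestive lipase gene mag had 15.1 and 20.1 in F2-M25-G25, against 77.7, 157 and 200 in F1-25 (log2 fold change -2.81 ± 0.65, adjusted p = 0.012). CG17192 stayed called without any 1 library, while CG12374 was lost without F2-M25-G25 replicate A (adjusted p = 0.095). Both CG6295 and mag were lost without F2-M25-G25 replicate A or B or F1-25 replicate D, and CG6295 and CG5107 also without F1-25 replicate B (adjusted p of CG6295 up to 0.15, of mag up to 0.11 and of CG5107 up to 0.17). The other largest decreases were Sgp, FBgn0040001, which has no name in the annotation used, and CG5107. Sgp (2L, 8519690 to 8521809) had 3.60 and 10.8 in F2-M25-G25, against 524, 680 and 1229 in F1-25, the largest fitted decrease of the called genes without overlap (log2 fold change -6.49 ± 1.09, adjusted p = 0.0020). FBgn0040001 fell by 4.44 ± 0.60 (adjusted p = 3.1e-04) and CG5107 had 5.45 and 22.2 in F2-M25-G25, against 123, 429 and 422 in F1-25 (adjusted p = 0.014). Sgp and FBgn0040001 stayed called without any 1 library.

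Several genes of lipid transport and synthesis also fell. This list holds the lipoprotein precursors, lipases, fatty acid synthases and sterol carriers. Of 18 tested, 8 fell and 0 rose, beside 3.82% and 2.78% of all genes. In 16 of the 18 the log2 fold change was below 0 (median -0.80). The lipoprotein gene apolpp, which the fat body makes to carry lipids in the blood, lies on chromosome 4 (1060969 to 1077273). It had 2550 and 2724 in F2-M25-G25, against 11935, 12890 and 15901 in F1-25. The gene fell by 2.35 ± 0.42 (adjusted p = 0.0024) and stayed called without any 1 library. The fatty acid synthase gene FASN1 fell by 1.39 (adjusted p = 0.0020), its relative FASN2 by 0.76 (adjusted p = 0.021) and the desaturase gene Desat1 by 0.83 (adjusted p = 0.0053). For the list, between 2 and 10 members fell when 1 library was left out, with the lowest counts without F2-M25-G25 replicate B (2) and A (3), then F1-25 replicate D (4) and B (5), and 0 fell without F1-25 replicates B and D (median -0.53).

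The storage proteins of the larva, which the fat body of the late larva makes and the pupa and young adult use up, were low in both measured F2-M25-G25 libraries. All 7 genes of this list had every F2-M25-G25 value below every F1-25 value, and the median was -1.62. However, 0 of the 7 have 4 measured F2-M25-G25 values, and 29.0% of all genes did not overlap in either direction. Of these genes only Lsp1alpha was called. It had 578 and 525 in F2-M25-G25, against 3622, 3552 and 1482 in F1-25, where replicate D was the lowest, and fell by 2.27 ± 0.67 (adjusted p = 0.044). Lsp2 had 2334 and 2354, against 10526, 10531 and 5633 in F1-25 (log2 fold change -1.87, adjusted p = 0.058), and Fbp1, the receptor for these proteins, 5971 and 5928, against 25287, 20261 and 9525 (log2 fold change -1.51 ± 0.59, adjusted p = 0.14). The abundant Obp99b, which encodes an odorant binding protein, followed the same order of libraries, with 575 and 610 in F2-M25-G25 against 3784, 3470 and 1449 in F1-25 (log2 fold change -2.17 ± 0.70, adjusted p = 0.069). The call of Lsp1alpha was lost without replicate A or B of either group (adjusted p up to 0.25).

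**Figure D2:**
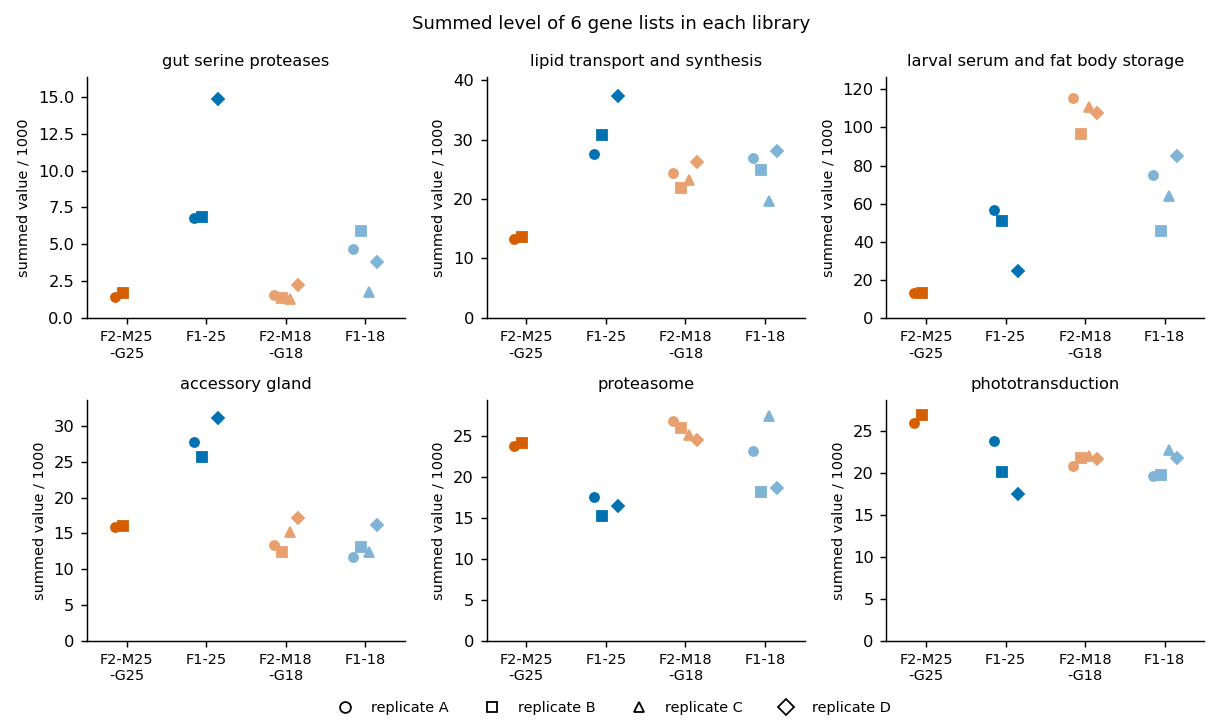
Summed normalised values, divided by 1000, of the tested members of 6 gene lists in each library of F2-M25-G25, F1-25, F2-M18-G18 and F1-18; F2-M25-G25 replicates C and D are left out because most of their values were calculated, and each axis starts at 0. F1-25 lies above the other 3 groups for the accessory gland list, at 25736 to 31105 against at most 17209.

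Seminal fluid genes of the accessory gland made up the most numerous decrease. Of 54 tested, 28 fell and 0 rose, beside 3.82% and 2.78% of all genes. In 51 of the 54 the log2 fold change was below 0 (median -0.68). Every F2-M25-G25 library lay below every F1-25 library in 40 of them, against the 29.0% of all genes that did not overlap in either direction. Their summed value was 15932 and 16090 in F2-M25-G25, against 27741, 25736 and 31105 in F1-25. The called members fell by a median of 0.84 and 8 of them had 4 measured F2-M25-G25 values.

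The sperm storage protein gene Acp36DE had 3982 and 4149 in F2-M25-G25, against 6993, 6066 and 6822 in F1-25, and fell by 0.70 ± 0.18 (adjusted p = 0.022). Acp53Ea had 783 and 722 in F2-M25-G25, against 1174, 1133 and 1341 in F1-25 (log2 fold change -0.69, adjusted p = 0.0037). The call of Acp36DE was lost without replicate A or B of F2-M25-G25 or F1-25 replicate D (adjusted p up to 0.15). Sfp96F, measured in all libraries, had 36.0 to 54.4 in the 4 F2-M25-G25 libraries, against 87.3 to 105 in F1-25, and fell by 0.98 (adjusted p = 0.0015). In contrast with the gut genes, replicate C was not apart here. The 2 largest decreases of the list were less typical. Est-6 (3L, 12188818 to 12190705), an esterase of the ejaculate, had 149 and 184, against 1318, 1139 and 1940 in F1-25, and fell by 3.09 ± 0.47 (adjusted p = 0.0011), past the threshold without any 1 library. Acp54A1 had 0, 3.05, 200 and 8.77 in F2-M25-G25, against 191, 107 and 261 in F1-25 (log2 fold change -3.86 ± 1.06, adjusted p = 0.030), with replicate C inside the F1-25 range. Its call was lost without any 1 library other than replicate C of F2-M25-G25 (adjusted p up to 0.15).

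The same step was visible in 2 genes of the testis list. Mst57Da and Mst57Db, which despite the list's name encode small accessory gland proteins, were the only called members of the 37 tested, beside 6.59% of all genes. Mst57Db had 1601 and 1619 in F2-M25-G25, against 2640, 2755 and 3119 in F1-25, and fell by 0.81 ± 0.16 (adjusted p = 0.0050), and Mst57Da fell by 0.66 ± 0.14 (adjusted p = 0.0066), both lost without F2-M25-G25 replicate A or B (adjusted p up to 0.072). The sperm protein genes themselves differed little. The leucyl aminopeptidase gene S-Lap1, a major sperm component, had 7269 and 6251, against 6900, 7384 and 6466 (log2 fold change -0.04 ± 0.11, adjusted p = 0.92), and the list's median was -0.09. The number of accessory gland genes that fell was 9 and 14 without replicate B or A of F2-M25-G25, 18 without F1-25 replicate D and 21 to 31 without any other, and it was 1 without F1-25 replicates B and D, where the median was -0.61, and 0 without F2-M25-G25 replicate A as well (-0.65).

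Cuticle genes moved in both directions. Of 39 tested, 5 rose and 6 fell (median -0.04), beside 2.78% and 3.82% of all genes. The decreases included 2 abundant structural proteins. Acp65Aa (3L, 6152050 to 6152745), an adult cuticle protein gene, had 36.7 and 57.2 in F2-M25-G25, against 661, 1028 and 969 in F1-25, and fell by 4.19 ± 0.67 (adjusted p = 0.0015). Cpr49Ae had 179 and 242, against 1765, 2534 and 2048, and fell by 3.31 ± 0.58 (adjusted p = 0.0024). Both stayed called without any 1 library, and their groups were far apart. Among the increases, Cpr50Cb had 30.7, 58.0, 25.1 and 60.9 in F2-M25-G25, against 21.5, 5.75 and 17.9 in F1-25 (log2 fold change 1.48 ± 0.42, adjusted p = 0.035), Cpr11B rose by 1.28 ± 0.37 (adjusted p = 0.037), and the abundant Cpr100A had 1956 and 2072, against 1249, 770 and 1100, and rose by 0.98 ± 0.19 (adjusted p = 0.0042). Cpr50Cb and Cpr11B were lost without replicate A, B or D of F2-M25-G25 or replicate B or D of F1-25 (adjusted p up to 0.24 and 0.19), and Cpr100A without F2-M25-G25 replicate B (adjusted p = 0.066). For the list, 1 to 7 genes rose and 2 to 7 fell without 1 library, the fewest of each without F2-M25-G25 replicate B, with 2 increases without F1-25 replicate B or D, 3 without F2-M25-G25 replicate A or D and 3 decreases without F2-M25-G25 replicate A. Without F1-25 replicates B and D together 0 were called by limma (median -0.21).

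Several genes that act on chitin or on tanning of the cuticle were called as well, in both directions. The chitinase gene Cht5 (3R, 13767549 to 13770732) had 868 and 850 in F2-M25-G25, against 287, 81.0 and 282 in F1-25, and rose by 2.18 ± 0.45 (adjusted p = 0.0057). The chitin-binding protein gene obst-A had 583 and 478, against 303, 294 and 254, and rose by 0.90 ± 0.17 (adjusted p = 0.0031). Both belong to the list of peritrophic matrix and mucin genes. Of its 26 tested, 4 rose and 3 fell (median -0.25), beside 2.78% and 3.82% of all genes, and 18 were below 0. Another chitinase gene, Cht9, fell by 2.04 ± 0.53 (adjusted p = 0.021), and the mucin gene Muc68E fell by 1.49 ± 0.27 (adjusted p = 0.0030). The gene of the receptor of the tanning hormone bursicon, rk, had 83.3, 66.5, 40.1 and 54.0 in F2-M25-G25, against 35.2, 24.5 and 16.5 in F1-25, and rose by 1.21 ± 0.28 (adjusted p = 0.012). In y, which is needed for black pigment and of which this stock carries a copy on the Y chromosome, the F2-M25-G25 values were 4.19, 6.12, 56.6 and 10.2, against 68.2, 103 and 66.8 in F1-25 (log2 fold change -2.53 ± 0.71, adjusted p = 0.033). The tyrosine hydroxylase gene ple, at the start of the melanin pathway, had 6489 and 8966, against 6111, 1815 and 3843, and was not called (log2 fold change 1.13 ± 0.39, adjusted p = 0.091). Of the 19 pigmentation and tanning genes, 1 rose and 1 fell, beside 2.78% and 3.82% of all genes. In 14 of the 19 the log2 fold change was above 0 (median 0.36). The number that rose was 5 without F1-25 replicate A, 2 without F2-M25-G25 replicate C and 0 without F1-25 replicate D or F2-M25-G25 replicate A or B, and it was 0, at a median of 0.29, without F1-25 replicates B and D. Cht5 was lost without F2-M25-G25 replicate A or B (adjusted p up to 0.068), obst-A without replicate A (0.066), rk without replicate A or B or F1-25 replicate D (0.094), and y without replicate A, B or D of F2-M25-G25 or B or D of F1-25 (0.16). Cht9 was lost without replicate A or B of F2-M25-G25 or B or D of F1-25 (0.13), while Muc68E stayed called without any 1 library. For the peritrophic matrix list, 0 to 6 genes rose and 1 to 4 fell without 1 library.

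The other large increases shared a low value in F1-25 replicate B. The fatty acid elongase gene eloF had 43.3 and 42.5 in F2-M25-G25, against 7.77, 1.43 and 18.2 in F1-25, and rose by 2.35 ± 0.55 (adjusted p = 0.012). Another elongase gene, CG8534, had 351 and 323, against 75.2, 26.0 and 153, and rose by 2.28 ± 0.58 (adjusted p = 0.020). CG17298 had 122 and 210, against 70.0, 8.84 and 38.1, and rose by 2.36 ± 0.55 (adjusted p = 0.012). CG34217 and CG14565 rose by 2.01 ± 0.56 (adjusted p = 0.034) and 1.92 ± 0.41 (adjusted p = 0.0065), with F1-25 replicate B again the lowest at 40.6 and 6.76. Without that library eloF, CG8534, CG17298 and CG34217 were no longer called, nor without F2-M25-G25 replicate B, which also ended the call of CG14565 (adjusted p = 0.15), and eloF, CG8534 and CG34217 were also lost without replicate A (adjusted p of these 5 genes up to 0.23). Among genes with 4 measured F2-M25-G25 values the leading increases were CG34211, Cpr50Cb, CG3502 and CG7607. CG7607 had 16.6, 25.1, 19.6 and 15.0 in F2-M25-G25, against 7.01, 5.19 and 6.47 in F1-25, and rose by 1.34 ± 0.23 (adjusted p = 0.0018), past the threshold without any 1 library. CG34211 rose by 1.66 ± 0.47 (adjusted p = 0.034) and CG3502 by 1.47 ± 0.37 (adjusted p = 0.019). Both were lost without F1-25 replicate B or F2-M25-G25 replicate A or B, and CG34211 also without replicate D of either group (adjusted p up to 0.17 over the libraries left out).

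**Figure D3:**
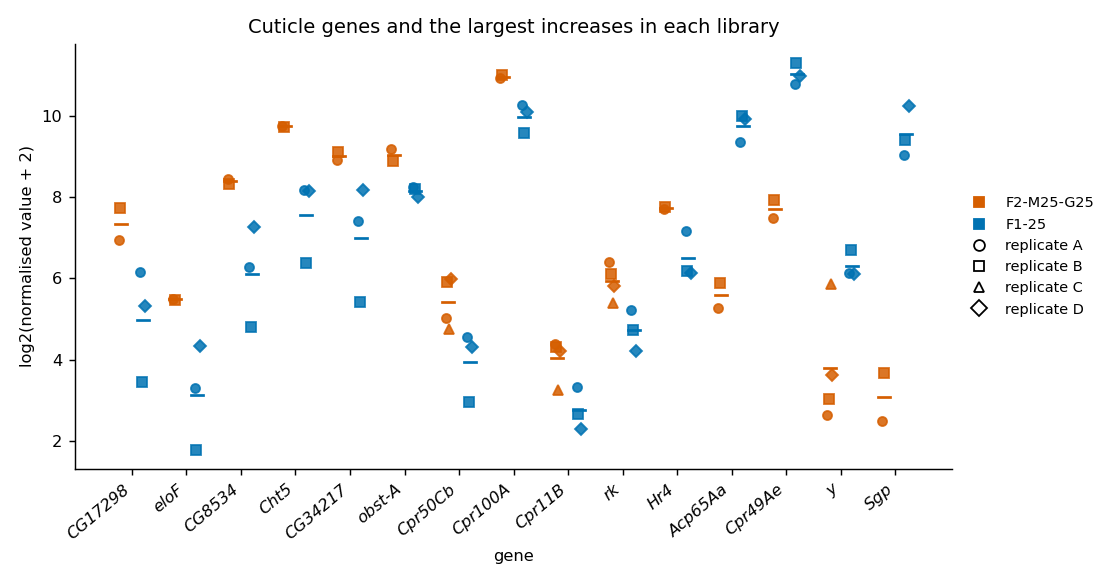
Log2(normalised value + 2) of 15 genes in each F2-M25-G25 library (orange) and F1-25 library (blue), for cuticle genes, the leading increases and Sgp; symbols mark the replicate and short lines the group means. F1-25 replicate B is the lowest F1-25 library in CG17298, eloF, CG8534, Cht5 and CG34217, and Acp65Aa, Cpr49Ae and Sgp are lower in F2-M25-G25.

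Ecdysone is the steroid hormone that times moulting and metamorphosis. Of 21 genes of its response and synthesis, 5 rose and 0 fell (median 0.23), beside 2.78% and 3.82% of all genes. The nuclear receptor gene Hr4 had 209 and 217 in F2-M25-G25, against 142, 70.4 and 68.2 in F1-25, and rose by 1.25 ± 0.26 (adjusted p = 0.0057). The transcription factor genes Blimp-1 and Eip93F rose by 0.65 ± 0.14 (adjusted p = 0.0086) and 0.55 ± 0.13 (adjusted p = 0.015). The F1-25 values of Blimp-1 were 850, 638 and 631, below 1065 and 1131 in F2-M25-G25. The list had 0 calls without F2-M25-G25 replicate B, 1 without replicate A, 2 without F1-25 replicate D and 0, at a median of 0.01, without F1-25 replicates B and D.

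Many proteasome subunit genes rose, by small amounts. The proteasome degrades proteins marked with ubiquitin. Of 46 genes tested, 18 rose and 0 fell (median 0.45), beside 2.78% and 3.82% of all genes. In 31 every measured F2-M25-G25 library lay above every F1-25 library, beside the 29.0% of all genes without overlap in either direction. That share pools genes with 2 and with 4 F2-M25-G25 values, and 2 values lie apart more easily. Of the 46 genes 6 had 4 measured F2-M25-G25 values. The regulatory subunit gene Rpn3 (2L, 19051790 to 19053681) had 1008 and 1065 in F2-M25-G25, against 630, 498 and 556 in F1-25, and rose by 0.89 ± 0.16 (adjusted p = 0.0029). Rpn9 had 1109 and 1083, against 755, 546 and 619 (log2 fold change 0.79 ± 0.18, adjusted p = 0.010), and Rpn2 had 1640 and 1673, against 1119, 927 and 947 (log2 fold change 0.74 ± 0.12, adjusted p = 0.0020). Rpn2 stayed called without any 1 library. The list contains 15 copies with a T or R at the end of their names, several of them known from the testis, and these behaved unlike the rest. Their log2 fold changes were -0.47 to 0.17 (median -0.12) with 0 called, whereas those of the 31 other subunits were 0.31 to 0.89 (median 0.58), a split noticed after the values were seen and not tested. The summed value of the list was 23816 and 24152 in F2-M25-G25, against 17568, 15197 and 16438 in F1-25. The number that rose was 2 and 7 without replicate B or A of F2-M25-G25, 9 without F1-25 replicate B and 0, at a median of 0.42, without F1-25 replicates B and D (0.38 without F2-M25-G25 replicate A as well).

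Phototransduction genes of the eye were higher by still smaller amounts, with 7 of 23 called, beside 2.78% of all genes that rose. All 23 log2 fold changes were above 0 (median 0.42). The rhodopsin gene Rh6 had 152 and 110 in F2-M25-G25, against 84.7, 53.8 and 80.5 in F1-25, and rose by 0.84 ± 0.23 (adjusted p = 0.030). Galphaq, the G protein subunit that rhodopsin activates, had 627 and 719, against 477, 393 and 440, and rose by 0.62 ± 0.17 (adjusted p = 0.033). For ninaE, the main rhodopsin gene, 5166 and 5046 in F2-M25-G25 lay above 4674, 4036 and 3303 in F1-25, but the gene was not called (log2 fold change 0.36 ± 0.12, adjusted p = 0.065). Of 8 neuronal markers, 7 had a log2 fold change above 0 (median 0.28, but 0.11 without F1-25 replicate D and -0.02 without F1-25 replicates B and D), and the synapsin gene Syn was called (log2 fold change 0.44 ± 0.13, adjusted p = 0.044, up to 0.24 without 1 library). F1-25 replicate D had the lowest summed value of both lists, 17487 for the eye and 7562 for neurons, against 25885 and 26852, and 10839 and 11731, in F2-M25-G25, and its part in the result was not tested. The number of eye genes called was 14 without F1-25 replicate A, 1 without replicate B or D of F1-25 and 0 without replicate A or B of F2-M25-G25, and 0 without F1-25 replicates B and D (median 0.17).

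**Figure D4:**
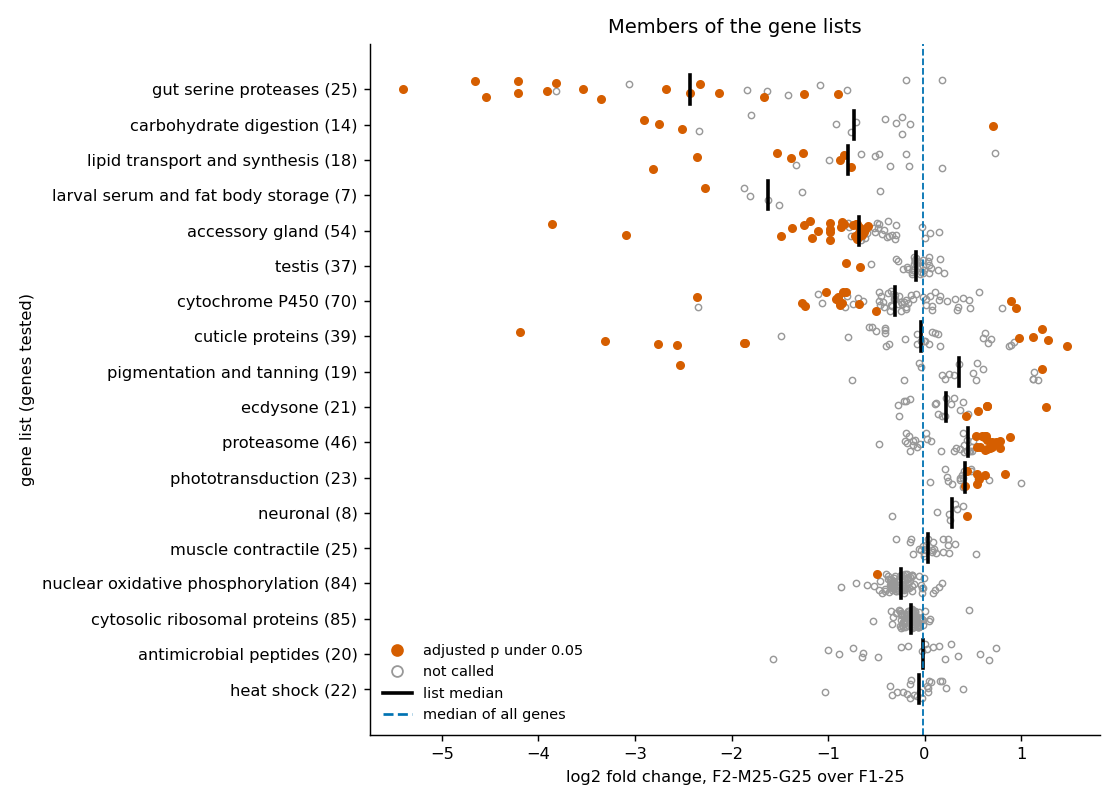
Log2 fold changes of F2-M25-G25 over F1-25 for the members of 18 gene lists, with called genes filled, list medians as black lines and the median of all tested genes as a dashed line; the number of genes tested stands after each list's name. The list medians run from -2.43 for gut serine proteases to 0.45 for proteasome subunits.

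Detoxification and redox genes gave a few calls. Among 70 cytochrome P450 genes, which oxidise steroids, fatty acids and foreign compounds, 2 rose and 13 fell, beside 2.78% and 3.82% of all genes. Their median was -0.31. Cyp4d1 had 9.61 and 22.4 in F2-M25-G25, against 73.5, 91.1 and 88.5 in F1-25, and fell by 2.35 ± 0.52 (adjusted p = 0.0090), whereas Cyp4ac3 had 63.2, 65.3, 67.8 and 51.9, against 26.4, 36.0 and 31.5, and rose by 0.95 ± 0.18 (adjusted p = 0.0031). The neighbouring Cyp4ac1 fell by 1.27 ± 0.31 (adjusted p = 0.016), so that related genes moved apart. Cyp4g1, which makes the waterproofing hydrocarbons of the cuticle, had 5699 and 6212, against 6234, 6148 and 14213 (log2 fold change -0.46 ± 0.30, adjusted p = 0.44), with F1-25 replicate D far above the rest. The number of P450 genes that fell was 2 and 3 without replicate A or B of F2-M25-G25, 4 without F1-25 replicate D and 1 without F1-25 replicates B and D. Of 30 glutathione S-transferase genes 2 fell, a share near the 6.59% of all genes, and 0 fell without F1-25 replicate D or F2-M25-G25 replicate A or B, 5 without F1-25 replicate A, and 0, at a median of -0.08, without F1-25 replicates B and D. The 2 called genes were GstE6, which fell by 1.17 ± 0.29 (adjusted p = 0.018), and GstE12, by 0.53 ± 0.13 (adjusted p = 0.015). The catalase gene Cat had 1174 and 1185 in F2-M25-G25, against 1565, 1632 and 2173 in F1-25, and fell by 0.59 ± 0.14 (adjusted p = 0.016), while the NADPH oxidase gene Nox rose by 0.72 ± 0.17 (adjusted p = 0.014) and the peroxiredoxin gene Prx6c by 0.97 ± 0.29 (adjusted p = 0.049). Of the genes named here Cyp4ac3 alone stayed called without any 1 library, and each of the others was lost without 1 or more of F2-M25-G25 replicates A and B, and several also without an F1-25 library, with adjusted p up to 0.26.

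Immune genes gave 1 call in 3 lists, beside 6.59% of all genes. Of 20 antimicrobial peptide genes, the products of the Imd and Toll pathways, 0 were called by limma and the median was -0.01. An unadjusted p below 0.05 was found in 4, all with lower values in F2-M25-G25, beside 2258 of all 11314 genes tested. BomS3 had 248 and 300 in F2-M25-G25, against 135, 162 and 227 in F1-25 (log2 fold change 0.67 ± 0.35, adjusted p = 0.30). Of 16 genes of peptidoglycan recognition, which senses bacterial cell walls, the only call was PGRP-SC1b, an amidase made in the gut. It had 0, 0.347, 26.8 and 1.58 in F2-M25-G25, against 18.5, 15.5 and 25.9 in F1-25 (log2 fold change -2.20 ± 0.67, adjusted p = 0.049), with replicate C the highest of all 7 libraries, and it was lost without any 1 library other than that one. None of the 3 lysozyme genes was called (1 at an unadjusted p below 0.05), and LysE had 61.4, 60.5, 80.6 and 43.5 in F2-M25-G25, against 101, 79.4 and 88.9 in F1-25 (log2 fold change -0.56 ± 0.19, adjusted p = 0.081). TotA, a stress protein of the blood, had 48.9 and 48.7, against 154, 134 and 145 (log2 fold change -1.52 ± 0.57, adjusted p = 0.12). None of the 22 heat shock genes was called (3 at an unadjusted p below 0.05, median -0.06), and the chaperone gene Hsp83 had 5131 and 4720, against 4095, 5281 and 5206.

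Genes of muscle, mitochondria and ribosomes did not pass the test, but for 1. Over all 11314 genes tested, 2258 had an unadjusted p below 0.05 by limma. Among 25 muscle genes (0 called by limma, 2 at an unadjusted p below 0.05), the myosin heavy chain gene Mhc had 148700 and 143000 in F2-M25-G25, against 140010, 126260 and 148400 in F1-25 (log2 fold change 0.08 ± 0.26, adjusted p = 0.92). Of 84 nuclear genes of oxidative phosphorylation, 80 had a log2 fold change below 0 at a median of -0.25, and COX7A was called (log2 fold change -0.49 ± 0.14, adjusted p = 0.040, up to 0.22 without 1 library). The 11 genes of the mitochondrial genome had a median of -0.55 with 0 called and 5 at an unadjusted p below 0.05, and the summed value of this list was 74368 and 72912 in F2-M25-G25, against 83229, 96188 and 170230 in F1-25, so that replicate D stood apart. The median of this list was -0.14 without F1-25 replicates B and D. The 85 ribosomal protein genes had a median of -0.14 with 0 called and 1 at an unadjusted p below 0.05. Of 13 clock genes, tim fell, with 792 and 762 in F2-M25-G25 against 1132, 1824 and 1096 in F1-25 (log2 fold change -0.76 ± 0.17, adjusted p = 0.011), and so did cry, which encodes the light sensor of the clock (log2 fold change -0.58 ± 0.15, adjusted p = 0.022). The core clock varies through the day, the hour of collection is not given in the sources used here, and its part was not tested. Both clock calls were lost without replicate A or B of F2-M25-G25, and cry also without F1-25 replicate D (adjusted p up to 0.21). Among 14 insulin and nutrient genes the receptor gene of the adipokinetic hormone, AkhR, fell by 0.74 ± 0.20 (adjusted p = 0.033) with values of 65.5 and 59.2 in F2-M25-G25, against 88.6, 105 and 126 in F1-25. Its call was lost without replicate A or B of F2-M25-G25 or replicate B or D of F1-25.

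The same generation step in flies with a cold history gave 1669 calls between F2-M18-G18 and F1-18, 14.8% of the genes tested, of which 858 rose and 811 fell. With equal library totals 1426 rose and 486 fell. Here too, recovered totals of replicates B, C and D of F1-18 and of replicate A of F2-M18-G18 lay within 0.15% of totals listed for libraries of other conditions. Replicates B and C of F1-18 matched totals listed for F1-25 libraries, within 0.018% and 0.065%. Without these 4 libraries only replicate A of F1-18 is left, so no calls are given for that setting. By their labels the 2 comparisons share no library, although they share the estimate of the spread. Because some totals matched names of the other pair, it is not settled that the 2 pairs hold separate libraries. Genes called in both can therefore not be taken as agreement of independent pairs. Whether the step differed between the histories was not tested. Called in both were 178 genes, 23.9% of the 746 and 10.7% of the 1669, with 46 higher in both, 114 lower in both and 18 in opposite directions. Of the 314 genes that rose in F2-M25-G25, 219 had a log2 fold change above 0 in F2-M18-G18 over F1-18, and of the 432 that fell, 305 had one below 0, beside 5684 of all 11314 tested above 0.

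Some cuticle and gut genes were lower in both histories, although Cpr100A was higher in both (0.52 in the cold-history pair, adjusted p = 0.021). Of the 39 cuticle genes 5 rose and 8 fell in the cold-history pair, beside 858 and 811 of all 11314 genes tested. For F2-M18-G18 over F1-18, Sgp had a log2 fold change of -3.97 ± 0.84 (adjusted p = 0.0037), with 21.7, 8.57, 9.14 and 94.5 in F2-M18-G18 against 1071, 977, 26.9 and 539 in F1-18, where replicate C was low. Acp65Aa (-2.26, adjusted p = 0.0061), Cpr49Ae (-1.91, adjusted p = 0.0076), alphaTry (-1.38, adjusted p = 7.2e-04), Amy-p (-1.70, adjusted p = 0.013) and y (-2.09, adjusted p = 0.035) were also called there. In the gut protease list as a whole, 5 of 25 fell in the cold-history pair (median -0.69), beside 811 of all 11314 genes. There Jon25Bi (-0.36, adjusted p = 0.85) and Jon99Fi (0.02, adjusted p = 0.99) were not called. Both were low throughout that pair: Jon25Bi averaged 4.53 in F2-M18-G18 and 4.13 in F1-18, and Jon99Fi averaged 6.97 in F2-M18-G18 and 6.39 in F1-18. Of the 46 proteasome genes 8 rose and 0 fell (median 0.23), beside 858 and 811 of all 11314 genes. Rpn3 was among those that rose (0.47, adjusted p = 0.016). Without the 4 doubted libraries of this pair only replicate A of F1-18 is left, so only log2 fold changes are given. They were -5.58 for Sgp, -3.19 for Acp65Aa, -2.58 for Cpr49Ae, -1.78 for alphaTry and -1.38 for Amy-p. For y the value was -2.46 and for Rpn3 0.29.

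Other groups had different values in the cold-history pair. Of the 54 accessory gland genes 6 rose and 1 fell there (median 0.17), beside 858 and 811 of all 11314 genes. The summed value of this list was 12402 to 17209 in F2-M18-G18 and 11702 to 16247 in F1-18. On this scale F2-M25-G25 (15932 and 16090) lay inside the range of both, and F1-25 (25736 to 31105) above all of them. The larval storage list had a median of 0.61 with 0 called, with summed values of 96808 to 115330 in F2-M18-G18 and 45760 to 84767 in F1-18, against 13225 and 13188 in F2-M25-G25. The gene apolpp (0.36, adjusted p = 0.50) was not called there, and tim rose (0.62, adjusted p = 0.0043).

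**Figure D5:**
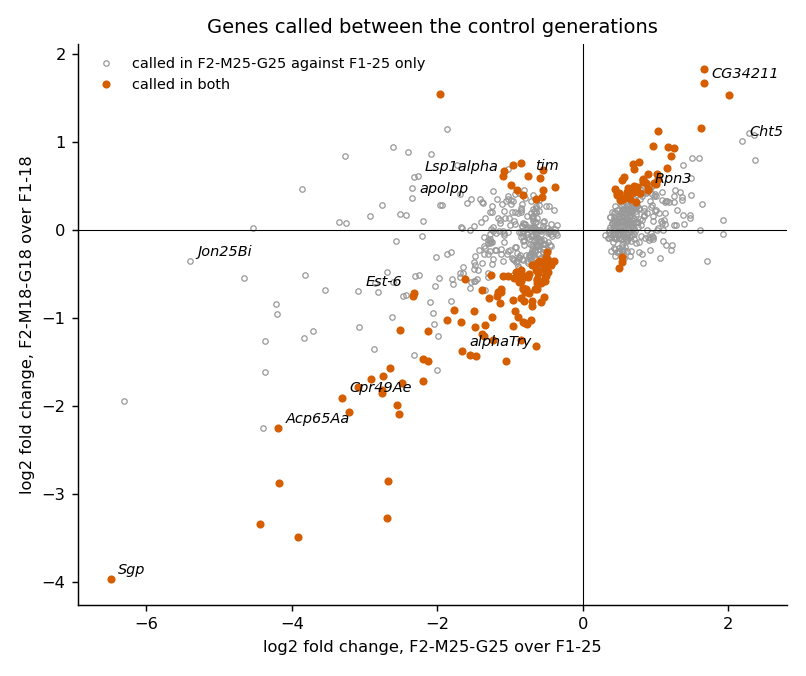
Log2 fold changes of F2-M25-G25 over F1-25 (horizontal) and of F2-M18-G18 over F1-18 (vertical) for the 746 genes called between F2-M25-G25 and F1-25, with genes called in both comparisons filled. Of the 178 filled genes 114 lie at the lower left, 46 at the upper right and 18 in the other quadrants.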

How the data were processed

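RNA-seq of 22 libraries was used. Per the labels and the methods, the authors removed ribosomal RNA reads, trimmed with Trimmomatic 0.32, aligned to the Release 6 genome with STAR 2.4.0f1, counted uniquely aligned reads by strand with HTSeq 0.6.1 and normalised with the TMM method of edgeR. The deposited values are the resulting normalised signal per gene, not whole counts, so limma 3.58.1 in R 4.3.3 was used (6 condition means, all 22 libraries, mean-variance trend, two-sided). The 2 crossed F2 groups entered only the spread. Figures and tables used Python 3.11.15.

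Members and gene lists were chosen with earlier results of these data known. The genes named are the 6 largest increases and decreases among called genes without overlap, the 4 of each with 4 measured F2-M25-G25 values, and up to 2 called members per direction and the most abundant member of each list (1 or 2 abundant members where none was called). Acp53Ea, Sfp96F, betaTry, Lsp2, FASN1, FASN2 and Desat1 were named outside this rule. Lists were matched by symbol. One for yolk and egg shell was set aside because it also caught the centrosome genes Cp190 and Cp110. Of 30 odorant binding genes 3 fell, beside 3.82% of all genes. Of 6 hemocyte genes 0 were called, and of 8 histone genes 1 rose, beside 2.78% of all genes. Obp99c fell by 1.31 ± 0.34 (adjusted p = 0.024) and Obp51a by 1.18 ± 0.22 (adjusted p = 0.0034). Obp51a stayed called without any 1 library, while Obp99c did not (adjusted p up to 0.20). Names came from Ensembl and matched 11888 of 12024 identifiers. Same-lettered replicates of the groups correlated at 0.16 (A), -0.04 (B) and 0.25 (D) in their deviations from the group means, and unlike letters at -0.24 to 0.09. Letters were not taken as pairs, although A and D correlated more highly with their own letter than with any other. The samples are biological replicates per the methods. The fit was tested on simulated data. Alternatives covered scaling, filter, pseudocount, spread, calculated values and left-out libraries.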

Additional observations from a re-analysis of the deposited data

Results flagged for a closer look

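In 10 of the 20 named genes with 4 measured F2-M25-G25 values, replicate C was far above the other 3 libraries. The cutoff for such a gap is one that chance passes in about 1 in 20 independent groups. The 20 genes come from the same libraries and were named partly for large changes in them. Their gaps were also taken on unlogged values. The 10 genes can therefore not be set against that rate, and the part of chance was not tested. The gap to the next library, as a share of the group's whole range, was 0.992 in Jon25Bi, 0.990 in Jon25Bii, 0.949 in Jon65Ai and 0.856 in Jon99Fi. It was 0.989 in CG17192 and 0.909 in CG6295, 0.941 in PGRP-SC1b and 0.956 in Acp54A1. It was also 0.927 in TotB, with 8.24 in replicate C against 0.986 to 1.51 in the others, and 0.885 in y.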

How the results depend on the processing

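The 746 calls became 328 with the 7 libraries alone, 1648 with the calculated values as in the file, 14 without F1-25 replicates B and D, 2 without F2-M25-G25 replicate A as well, and 143 to 1072 without any 1 library. The cold-history comparison gave 1011 calls with its 8 libraries alone, and 1041 to 1827 without any 1 library. The causes of these changes were not tested. The settings without 2 to 4 libraries, and sample weights, were chosen after seeing the data. A replicate block by letter gave 751 calls, 310 higher and 441 lower, although letters were not shown to pair the samples. Other scalings, filters, pseudocounts and ways of estimating the spread gave counts within 1.5 times of the main one. None of the 67 called genes chosen by rule changed direction, but for most called genes their lack of overlap largely set this in advance. With 3 F1-25 libraries, of which 2 are in doubt, and 2 measured F2-M25-G25 values for most genes, the calls rest on few libraries, and the lowest values stand for single reads.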
